A study of Homo sapiens with 12 samples.

Results

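The 9 genes described here encode transcription factors that define the hepatocyte programme: CEBPA and CEBPB, HNF4A, FOXA1, FOXA2 and FOXA3, the nuclear receptors NR1H4 and NR5A2, and PROX1. They were taken by name from the 22148 genes of the deposited tables and every one of them was found. The study asked how silencing of CPSF6 changes RNA stability in HepG2, an established human liver cancer cell line that keeps much of the hepatocyte programme. For 48 h the cells carried siRNAs against CPSF6 (siCPSF6) or the control labelled si-NC (siNC), and they were then given actinomycin D at 5 µg/ml, which blocks transcription. Both arms were harvested at 0, 3 and 6 h, so that 0 h is the transfected cell before any block, and each of the 6 groups has 2 biological replicates, 12 libraries in all. The model is this 1 line, in bulk. A lower level in every cell cannot be told apart from a smaller share of cells that hold the RNA. In the 0 h comparison, lower transcription cannot be told apart from faster decay.

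In the liver these factors form a network in which each binds the regulatory regions of others and of the genes for plasma proteins, lipid carriers and bile acid enzymes. The FOXA factors open chromatin, HNF4A keeps the differentiated epithelial state, the C/EBP factors drive metabolic and acute-phase genes, and NR1H4 (the bile acid receptor FXR) and NR5A2 (LRH-1) control bile acid synthesis. CPSF6 is a subunit of cleavage factor Im, which binds UGUA in nascent RNA and favours cleavage at distal poly(A) sites, so that its loss is known to shorten many 3′ UTRs. Messages of regulatory genes are often short-lived, and AU-rich pentamers (AUUUA) in the 3′ UTR are a classic mark of rapid decay.

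To show what these messages carry, the longest annotated 3′ UTR of each gene (GENCODE release 29, hg38) was searched on its own strand, overlaps allowed, for the letters ATTTA and TGTA, the DNA spelling of both elements. In the 30-base windows below, those richest in the element, capitals mark the matches. The ATTTA windows are from members whose RNA was lost at different speeds, and the TGTA windows are from the 2 members whose apparent transcript length changed.
PROX1, ATTTA, chr1:214040833-214040862, plus strand: aATTTAttggtttaATTTAtcctaATTTAt
FOXA2, ATTTA, chr20:22581258-22581287, minus strand: aATTTAtggtttctgcgtgctttATTTAtg
FOXA1, ATTTA, chr14:37591001-37591030, minus strand: ttgtggagggttATTTAaaaaaacaaaaaa
CEBPA, ATTTA, chr19:33301052-33301081, minus strand: ggcaactctagtATTTAggataaccttgtg
NR1H4, TGTA, chr12:100563542-100563571, plus strand: aTGTAtaactttcctttatttcactTGTAc
HNF4A, TGTA, chr20:44430248-44430277, plus strand: tctgggaacatgtTGTAagcactgactggg

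PROX1 had the longest 3′ UTR of the 9, 5668 bases, with 27 ATTTA (4.76 per kb). That density is at the 91.0th percentile of the 17028 genes whose longest 3′ UTR has at least 200 bases, where the median is 1.69 per kb and 74.1% of genes hold at least 1 match. FOXA1 held 5 in 1381 bases (3.62 per kb), FOXA2 held 2 in 845 and CEBPA held 1 in 1404 (0.71 per kb). FOXA3 held none in 739 bases. TGTA occurs in 91.3% of these 3′ UTRs, at a median of 4.80 per kb. NR1H4 held 9 in 924 bases (9.74 per kb, 92.1th percentile), whereas HNF4A held 5 in 4931 (1.01 per kb, 10.4th percentile). A match is a description of the letters, not a shown binding site, and the authors' own annotation is not GENCODE 29, so that the end each message used is not known from it.

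In each library 21800000 to 30300000 reads were counted, and replicates of a group correlated at 0.9911 to 0.9931 (Pearson, log2 scale). The values are normalized counts that the authors set to the same upper quartile in each library. CPSF6, the targeted gene, stood at 2147 and 2082 in siNC at 0 h and at 768 and 718 in siCPSF6. It was lower in siCPSF6 at 0, 3 and 6 h, by 1.51, 2.19 and 2.16 on the log2 scale. The 6 hepatocyte markers summed to between 17700 and 27500 TPM per library and all 6 were present. Of 10 stromal, endothelial and immune markers 8 were in the table, and they summed to 47.2 to 81.3 TPM. Of these, 4 had a mean of at least 1 TPM, and most of the sum was ACTA2 and CD68 (27.3 and 24.3 TPM in siNC at 0 h). The 5 biliary markers summed to 600 to 1120 TPM, and their part in the results was not tested.

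Total mRNA can decline and its make-up can change under the block, while the upper quartile is held equal. ERCC spike-ins were added to 5 µg of total RNA and so set a level per mass of RNA, not per cell. They made up 1.125% and 1.182% of the normalized counts in siNC at 0 h, and 1.408% and 1.265% at 6 h. In siCPSF6 they made up 1.222% and 1.182%, then 1.372% and 1.32%. Time courses were therefore read on 2 scales: as deposited, and after scaling to the spike-ins. The choice moved the median of all tested genes for 6 h against 0 h from 0.31 to -0.65 (log2) in siNC and from 0.35 to -0.50 in siCPSF6. For 3 h against 0 h it moved from 0.26 to -0.43 and from 0.25 to -0.28, and for 6 h against 3 h from 0.09 to -0.18 and from 0.13 to -0.20. For siCPSF6 against siNC at 0 h the move was from 0.00 to -0.13, and the share of calls that were higher went from 50.8% to 31.2%. At 3 and 6 h that median moved by less. The share of higher calls also went from 61.3% to 15.1% (siNC) and from 64.3% to 10% (siCPSF6) for 6 h against 0 h, from 64.1% to 7.8% and from 65.6% to 7.1% for 3 h against 0 h, and from 60.1% to 19.7% and from 65.0% to 0.6% for 6 h against 3 h. For the difference between the arms the median moved from -0.03 to 0.12 over 0 to 3 h and from -0.03 to 0.08 over 0 to 6 h, and the share of higher calls from 75.5% to 96.6% and from 49.1% to 78.9%. The 2 siCPSF6 libraries at 3 h had unequal spike-in factors, 1.2122 and 0.9387, which widens the spread on that scale.

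Per length, CEBPA and HNF4A were the most abundant members before the block, with means of 127 ± 26.1 and 98.1 ± 3.29 TPM (SD, n = 2) in siNC. Their difference was about the size of the replicate SD of CEBPA. FOXA1 (43.2 and 51.9 TPM) and NR1H4 (42.1 and 47.3 TPM) followed and overlapped. FOXA2 at 25.3 ± 1.33 TPM, FOXA3 at 20.1 ± 1.31, PROX1 at 15.1 ± 0.0822 and CEBPB at 6.58 ± 0.463 came next, without overlap between neighbours. NR5A2, known as an abundant liver receptor, was at 0.346 ± 0.0338 TPM. In siCPSF6 the order kept CEBPA (72.9 ± 17.5 TPM) and HNF4A (60.4 ± 3.98) at its head, and their ranges overlapped. NR1H4 (29.1 and 33.2 TPM) now overlapped FOXA2 (28.3 and 31.2 TPM), and PROX1 stood above FOXA3.

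NR5A2 had a mean of 13.42 normalized counts over the 12 libraries, below the minimum of 20, and the other 8 members were tested. Silencing changed some of these 8 at each time. At 0 h, 3 of 8 passed an adjusted p of 0.05 (limma, Benjamini-Hochberg over all 12939 tested genes), against 42.9% of all tested genes. At 3 h 5 of 8 passed, against 55.3%, and at 6 h 4 of 8, against 55.7%. The members' share was therefore near that of all genes at every time. Which members they were, and in which direction, is given gene by gene below, and the plot of counts by library shows the values behind it.

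**Figure D1:**
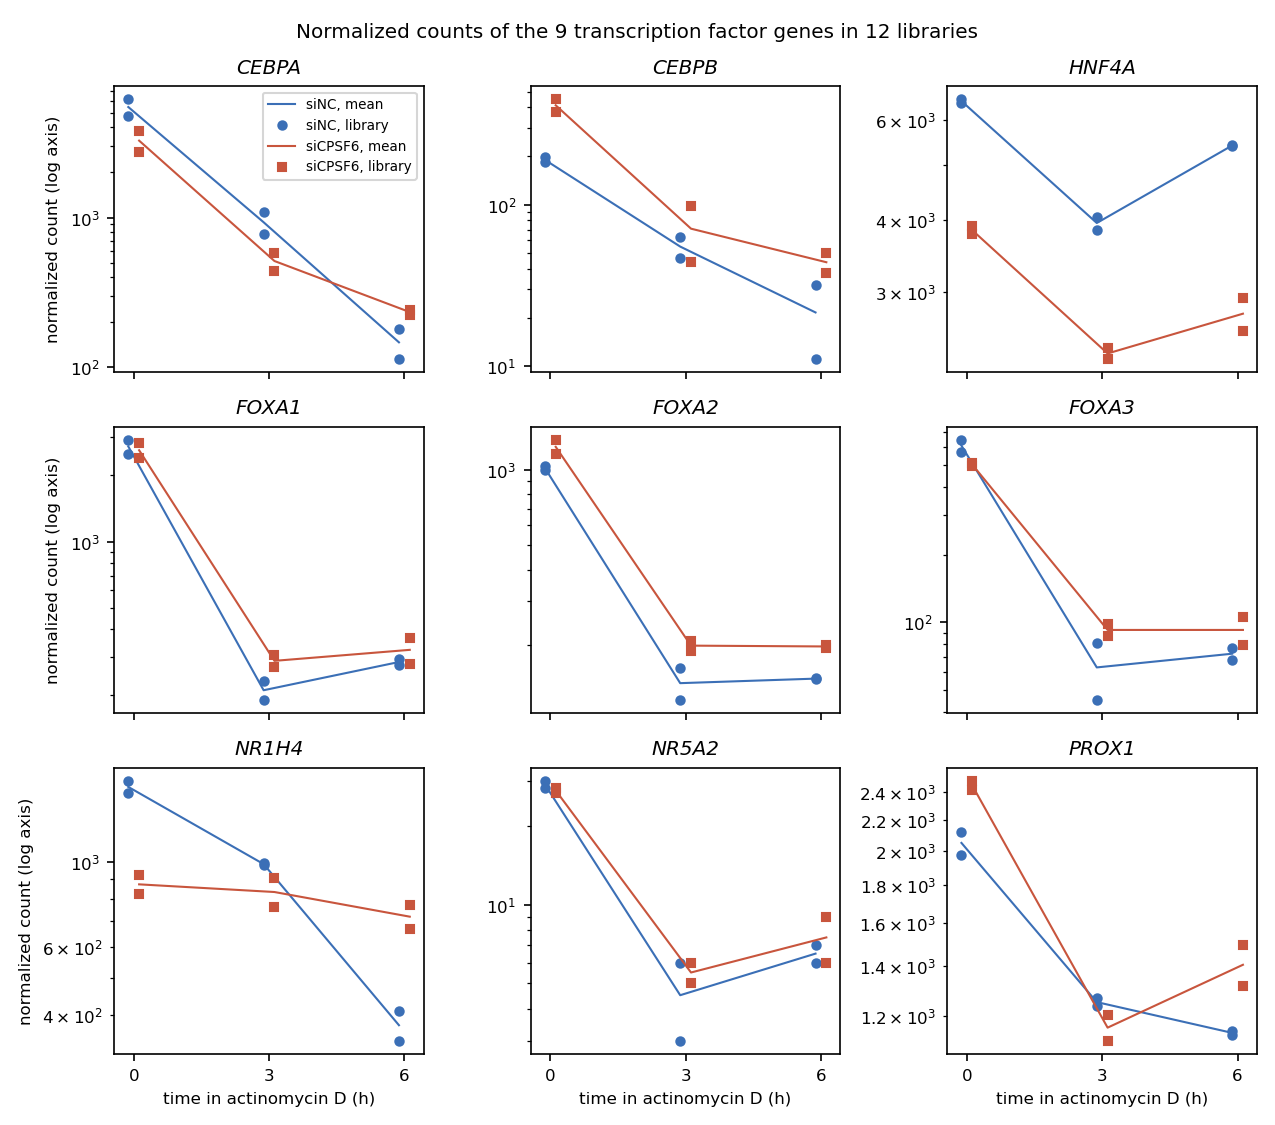
Normalized counts (log axis) against time in actinomycin D for each of the 9 genes; points are libraries, lines join the means of 2, circles are siNC and squares siCPSF6. HNF4A in siCPSF6 lies below siNC at every time, and the NR1H4 lines cross between 3 and 6 h.

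HNF4A, the nuclear receptor at the centre of the network, was lower after CPSF6 silencing at every time. Its normalized counts in siNC were 6410 and 6517 at 0 h, 3854 and 4060 at 3 h, and 5389 and 5420 at 6 h. In siCPSF6 they were 3783 and 3904, then 2285 and 2396, then 2565 and 2929. No siCPSF6 library reached its siNC counterparts at any time. The log2 difference was -0.75 (SE 0.07, adjusted p = 1.2e-06) at 0 h, -0.76 (adjusted p = 5.2e-07) at 3 h and -0.98 (adjusted p = 3.4e-08) at 6 h. It also passed with spike-in scaling, at -0.88, -0.73 and -1.01, and in the TPM table, at -0.69, -0.59 and -0.68.

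NR1H4, the bile acid receptor, started lower in siCPSF6 and ended higher. In siNC it fell from 1501 and 1620 normalized counts at 0 h to 990 and 980 at 3 h and 343 and 411 at 6 h. In siCPSF6 it stood at 824 and 922, then 761 and 907, then 670 and 770. The siCPSF6 libraries were thus below siNC at 0 and 3 h, with the wider gap at 0 h, and above it at 6 h, with no overlap between the arms at any time. The difference was -0.84 (SE 0.11, adjusted p = 3.4e-05) at 0 h and 0.93 (SE 0.11, adjusted p = 5.7e-06) at 6 h, a fold of 1.91. At 3 h it was -0.25 (adjusted p = 0.077) and passed with the replicate number as a block (adjusted p = 0.014), with only the groups compared in the fit (0.044) and without siCPSF6 3 h replicate 2 (-0.37, adjusted p = 0.03). In the TPM table, where counts are divided by length, the 3 h value was 0.21 (adjusted p = 0.17), of opposite sign and not past the threshold.

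CEBPA, the metabolic C/EBP factor, had 4754 and 6184 normalized counts in siNC at 0 h, 771 and 1090 at 3 h, and 113 and 181 at 6 h. In siCPSF6 it had 2753 and 3773, then 443 and 583, then 225 and 243. The siCPSF6 values were below siNC at 0 and 3 h and above it at 6 h, without overlap, and replicate 1 was the lower library in all 6 groups. The log2 difference was -0.75 (SE 0.29, adjusted p = 0.073) at 0 h, -0.85 (adjusted p = 0.039) at 3 h and 0.71 (adjusted p = 0.073) at 6 h. With the replicate number as a block the values at 0, 3 and 6 h all passed (adjusted p = 2e-06, 2.2e-07 and 2.6e-06). The 0 h value also passed in the TPM table (adjusted p = 0.029) and without siNC 6 h replicate 1 (0.043) or 2 (0.042), and the 6 h value with only the groups compared in the fit (0.023) and without siNC 6 h replicate 2 (1.04, adjusted p = 0.024). The 3 h call was lost with spike-in scaling (adjusted p = 0.15), with median-ratio scaling (0.052), with no filter (0.059), and without siNC 3 h replicate 2 (0.17), siCPSF6 3 h replicate 1 (0.18) or either siCPSF6 6 h replicate (0.066 each).

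CEBPB, the C/EBP factor of the acute phase, had 183 and 196 normalized counts in siNC at 0 h and 451 and 374 in siCPSF6. At 3 h the counts were 63 and 47 in siNC and 98 and 44 in siCPSF6, and at 6 h 11 and 32 against 50 and 38. The arms separated at 0 and 6 h and overlapped at 3 h. The difference was 1.11 (SE 0.47, adjusted p = 0.08) at 0 h, 0.27 (adjusted p = 0.65) at 3 h and 1.16 (adjusted p = 0.056) at 6 h, none past the threshold. The 0 h value passed in the TPM table (0.96, adjusted p = 0.0074), with a pseudocount of 10 (0.025) and with only the groups compared in the fit (3.2e-05). It also passed without siNC 6 h replicate 1 (0.012) or 2 (0.011) or siCPSF6 3 h replicate 1 (0.034) or 2 (0.036). The 6 h value passed with spike-in scaling (1.12, adjusted p = 0.039) and with a minimum mean of 100 (0.046). Without siNC 6 h replicate 2 it was 1.89 (adjusted p = 0.0012), and it passed without siCPSF6 3 h replicate 1 (0.022) or 2 (0.023).

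The 3 FOXA genes, whose proteins open liver chromatin, did not pass between the arms before the block in the fit of all 6 groups. FOXA1 had 2513 and 2900 normalized counts in siNC and 2409 and 2792 in siCPSF6 at 0 h. FOXA2 had 993 and 1036 against 1313 and 1150, and FOXA3 had 649 and 574 against 510 and 497. FOXA1 overlapped between the arms, and FOXA2 was higher and FOXA3 lower in siCPSF6 in both libraries. None passed in that fit (differences of -0.06, 0.28 and -0.28, adjusted p = 0.77, 0.11 and 0.35). With only the groups compared in the fit, FOXA2 and FOXA3 passed (adjusted p = 0.012 and 0.023).

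After 3 h of the block all 3 FOXA genes were higher in siCPSF6. FOXA1 had 190 and 232 in siNC and 270 and 304 in siCPSF6, a difference of 0.45 (SE 0.14, adjusted p = 0.014). FOXA2 had 162 and 121 against 209 and 190, a difference of 0.51 (SE 0.13, adjusted p = 0.0052). FOXA3 had 81 and 45 against 87 and 98, a difference of 0.60 (SE 0.23, adjusted p = 0.035). No siNC library reached a siCPSF6 library for these genes. With only the groups compared in the fit the FOXA3 call was lost (adjusted p = 0.065). The FOXA1 call was lost with spike-in scaling (adjusted p = 0.051), in the TPM table (0.18), and without siNC 3 h replicate 1 (0.30, adjusted p = 0.14) or siCPSF6 3 h replicate 2 (adjusted p = 0.10). Without siNC 3 h replicate 2 the FOXA2 difference was 0.30 (adjusted p = 0.093) and the FOXA3 difference 0.19 (adjusted p = 0.48). The FOXA3 call was also lost without siCPSF6 3 h replicate 1 (adjusted p = 0.068) or replicate 2 (0.15), and in the TPM table (0.064).

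At 6 h FOXA2 alone of the 3 passed, with 148 and 147 normalized counts in siNC against 196 and 200 in siCPSF6 (0.42, SE 0.13, adjusted p = 0.015). That call was lost with spike-in scaling (0.39, adjusted p = 0.084) and with only the groups compared in the fit (adjusted p = 0.053). It was also lost without siCPSF6 6 h replicate 2 (0.41). FOXA1 had 274 and 293 against 278 and 366 (0.17, adjusted p = 0.31), and FOXA3 had 68 and 77 against 106 and 79 (0.33, adjusted p = 0.22).

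PROX1, a homeobox factor of hepatoblasts and hepatocytes, showed small differences between the arms that turned with time. It had 2122 and 1976 normalized counts in siNC at 0 h, 1270 and 1238 at 3 h, and 1133 and 1148 at 6 h. In siCPSF6 it had 2483 and 2409, then 1112 and 1206, then 1496 and 1318. The siCPSF6 libraries were higher at 0 and 6 h and lower at 3 h. The difference was 0.26 (SE 0.08, adjusted p = 0.017) at 0 h, -0.11 (adjusted p = 0.23) at 3 h and 0.30 (adjusted p = 0.0048) at 6 h. With spike-in scaling neither call held (0.12 and 0.27, adjusted p = 0.61 and 0.18), and the 0 h call was lost in the TPM table (adjusted p = 0.16). It was also lost without siNC 0 h replicate 2 (adjusted p = 0.14) or without siCPSF6 0 h replicate 1 (0.10) or 2 (0.053), and the 6 h call without siCPSF6 6 h replicate 1 (0.075).

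NR5A2, the LRH-1 receptor, had 30 and 28 normalized counts in siNC at 0 h, 3 and 6 at 3 h, and 7 and 6 at 6 h. In siCPSF6 it had 28 and 27, then 6 and 5, then 6 and 9. The arms were close at every time and the level dropped within 3 h in both. When genes of any level were tested, siCPSF6 against siNC gave -0.07, 0.29 and 0.16 at 0, 3 and 6 h (adjusted p of at least 0.68), and 3 h against 0 h gave -2.50 in siNC and -2.14 in siCPSF6 (adjusted p = 0.00018 and 0.00095).

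**Figure D2:**
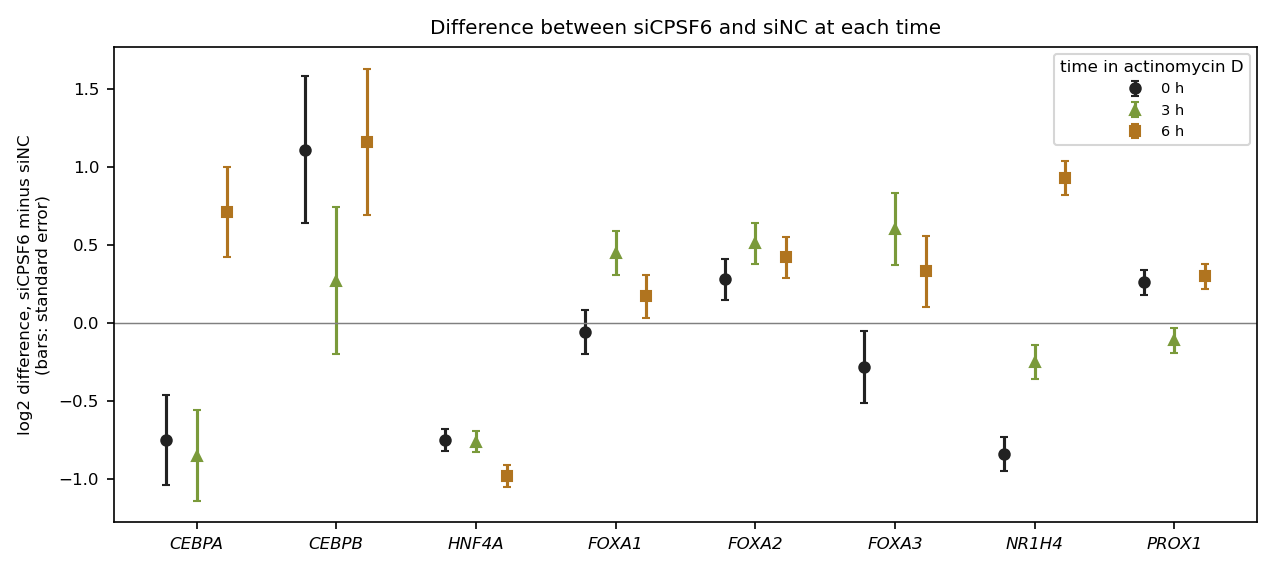
Log2 difference between siCPSF6 and siNC (vertical axis; limma estimate with its standard error) for the 8 tested genes at 0, 3 and 6 h in actinomycin D. HNF4A stays between -0.75 and -0.98, NR1H4 goes from -0.84 to 0.93, and CEBPA and CEBPB carry the widest errors.

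Nearly all tested members were lower after the block. As deposited, all 8 tested members were lower at 3 h than at 0 h in siNC, against 25.7% of all tested genes, and 7 of 8 in siCPSF6, against 22.9%. At 6 h all 8 were lower than at 0 h in both arms, against 30.7% of genes in siNC and 27.6% in siCPSF6. On the spike-in scale all 8 were lower in each of these comparisons, where the background was 48.8% and 57.7% of genes at 3 and 6 h in siNC and 38.4% and 52.4% in siCPSF6. On that scale the 8 had a median change at 6 h of -3.87 (siNC) and -3.39 (siCPSF6), beside -0.65 and -0.50 for all genes. The exception as deposited was NR1H4 in siCPSF6 at 3 h (-0.07, adjusted p = 0.6), which was lower on the spike-in scale (-0.60, adjusted p = 0.0063). Its deposited 6 h change in siCPSF6, -0.28 (adjusted p = 0.034), was lost with no filter (0.052), and without siCPSF6 0 h replicate 2 (-0.20, 0.22) or 6 h replicate 1 (-0.18, 0.24).

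In percent of the 0 h mean on the spike-in scale, FOXA1 had 4.20% and 5.51% left in the siNC libraries at 3 h and 4.82% and 5.98% at 6 h. FOXA3 had 7.91% and 4.72% at 3 h and 5.29% and 6.95% at 6 h, and FOXA2 had 9.54% and 7.66%, then 6.94% and 8.0%. These 3 genes thus lost most of their RNA within 3 h and showed no further loss that passed from 3 to 6 h in siNC on that scale (0.16, -0.01 and -0.20 for FOXA1, FOXA3 and FOXA2, adjusted p = 0.57, 0.98 and 0.45). As deposited, FOXA3 was at 0.26 (adjusted p = 0.37) from 3 to 6 h, and at 0.67 (adjusted p = 0.018) without siNC 3 h replicate 1.

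CEBPA kept falling through both intervals. It had 8.44% and 12.8% left at 3 h and 0.985% and 1.83% at 6 h in siNC, and 8.21% and 14.0%, then 3.67% and 4.21%, in siCPSF6. Its 6 h change in siNC was the largest fall among the members, -5.23 as deposited and -6.19 on the spike-in scale (SE 0.29 and 0.40, adjusted p = 5.9e-07 and 3.8e-06). CEBPB had 19.9% and 15.9%, then 2.76% and 9.33%, in siNC, and 14.5% and 8.39%, then 6.5% and 5.24%, in siCPSF6.

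HNF4A and PROX1 were the slow members in siNC. HNF4A had 35.6% and 40.3% left at 3 h and 39.7% and 46.3% at 6 h, and PROX1 had 37.0% and 38.8%, then 26.3% and 30.9%. The 6 h change in siNC on the spike-in scale was -1.81 (SE 0.16) for PROX1, with the densest ATTTA of the 9, and -4.02 (SE 0.23) for FOXA3, which holds none; this difference between genes was not tested. NR1H4 was like HNF4A and PROX1 at 3 h in siNC, at 37.9% and 40.4%, and then dropped to 10.5% and 14.6%.

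**Figure D3:**
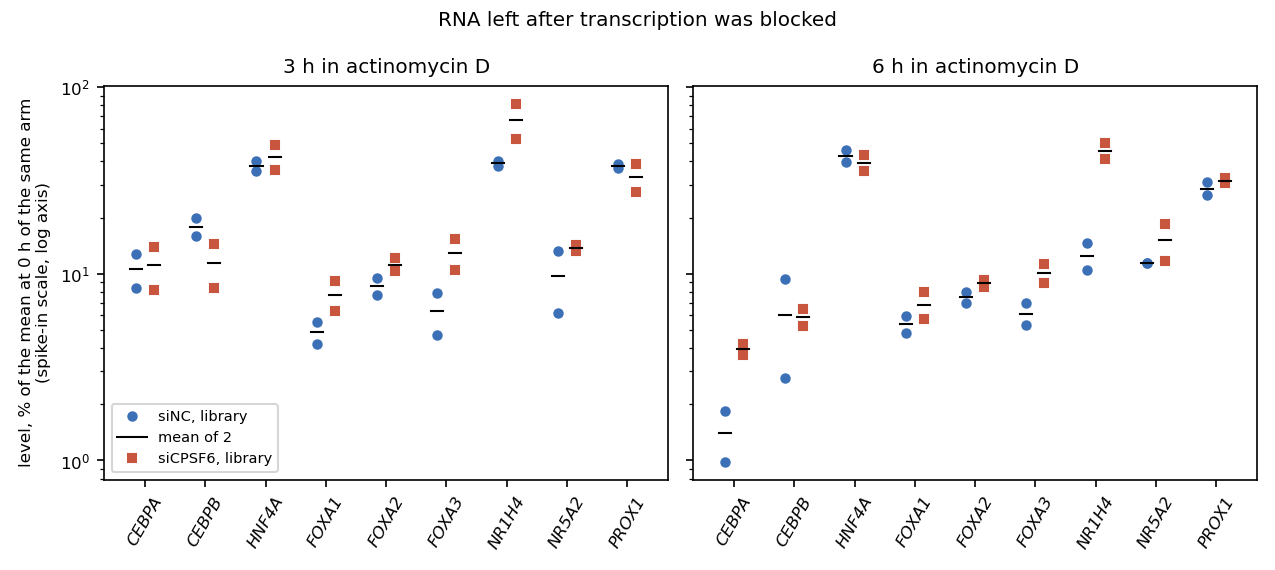
Level left in percent of the 0 h mean of the same arm on the spike-in scale (log axis), at 3 h (left) and 6 h (right); circles are siNC libraries, squares siCPSF6 libraries, bars means of 2. At 6 h CEBPA in siNC is lowest, with a mean of 1.41%, and NR1H4 is at 12.5% in siNC and 45.5% in siCPSF6.

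Between 3 and 6 h, 5 of 8 members changed in siNC as deposited, against 48.5% of all tested genes, and 3 of 8 in siCPSF6, against 34.1%. CEBPA fell in both arms, by 2.67 in siNC and by 1.12 in siCPSF6 (adjusted p = 0.00016 and 0.021). NR1H4 fell by 1.39 in siNC (adjusted p = 1.6e-07). In siCPSF6 its change was -0.21 (adjusted p = 0.17), which passed with the replicate block (0.046) and on the spike-in scale (-0.53, adjusted p = 0.032). CEBPB fell in siNC by 1.48 (adjusted p = 0.024), a call lost with the replicate block (0.056), and without siNC 3 h replicate 1 (0.13) or 2 (0.055) or 6 h replicate 1 (-0.75, 0.14).

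The members that were higher at 6 h than at 3 h depended on the scale. As deposited HNF4A was higher in siNC (0.45, adjusted p = 9e-05) and in siCPSF6 (0.23, adjusted p = 0.021), FOXA1 in siNC (0.43, adjusted p = 0.019) and PROX1 in siCPSF6 (0.28, adjusted p = 0.014). On the spike-in scale these were 0.18, -0.10, 0.16 and -0.05, and none passed. PROX1 in siNC was lower on that scale (-0.41, adjusted p = 0.043). The call for CEBPA in siCPSF6 was lost without siCPSF6 3 h replicate 2 (-0.92, adjusted p = 0.11) or 6 h replicate 1 (0.11) or 2 (0.079). The calls for HNF4A and PROX1 in siCPSF6 were lost without 3 h replicate 1 (0.12 and 0.11), that for HNF4A without 6 h replicate 2 (0.13, adjusted p = 0.22) and that for PROX1 without 6 h replicate 1 (0.15). The FOXA1 call was lost without siNC 3 h replicate 1 (0.29, adjusted p = 0.18) or 6 h replicate 2 (0.092).

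Whether the loss itself differed between the arms was tested as an interaction, which uses all 4 groups and cancels a difference already present at 0 h. Over 0 to 6 h, 2 of 8 members passed, against 24.4% of all tested genes. Both, NR1H4 and CEBPA, lost less in siCPSF6. For NR1H4 the siNC change was -2.05 and the siCPSF6 change -0.28, a difference of 1.77 (SE 0.16, adjusted p = 3.9e-06). With spike-in scaling it was 1.88 (adjusted p = 2.1e-06). On that scale each siCPSF6 library at 6 h was at no less than 41.0% of the 0 h mean of its arm, and each siNC library at no more than 14.6%.

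For CEBPA the changes were -5.23 and -3.78, a difference of 1.46 (adjusted p = 0.038). This call was lost with spike-in scaling (1.56, adjusted p = 0.17) and with no filter (0.063). It was also lost without siNC 0 h replicate 2 (0.10) or 6 h replicate 1 (1.12, adjusted p = 0.088), and without siCPSF6 0 h replicate 1 (0.098) or 6 h replicate 1 (0.096) or 2 (0.11). With the replicate block it held (adjusted p = 8.5e-08), also when the block was joined with spike-in scaling. The HNF4A difference, -0.23, passed with the block (adjusted p = 0.034) and without siCPSF6 6 h replicate 2 (-0.33, adjusted p = 0.034).

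Over 3 to 6 h, 3 of 8 passed, against 15.3% of all genes. These were NR1H4 (1.18, adjusted p = 0.00017), CEBPA (1.55, adjusted p = 0.042) and PROX1 (0.41, adjusted p = 0.021). With spike-in scaling NR1H4 held (1.13, adjusted p = 0.0052), and CEBPA (1.5, adjusted p = 0.25) and PROX1 (0.36, adjusted p = 0.46) did not. With spike-in scaling and the replicate block CEBPA held and PROX1 did not (adjusted p = 0.21). In the TPM neither CEBPA nor PROX1 passed (adjusted p = 0.05 and 0.057). There CEBPA at 6 h had means of 1.86 (siNC) and 3.08 TPM (siCPSF6), where log2 of TPM plus 1 understates changes. The CEBPA call was lost without any of 6 libraries: siNC 3 h replicate 2 (0.098), siNC 6 h replicate 1 (1.22, adjusted p = 0.086), or siCPSF6 3 h replicate 1 (0.11) or 2 (0.056) or 6 h replicate 1 (0.10) or 2 (0.12). The PROX1 call was lost without siNC 3 h replicate 1 (0.072) or 2 (0.05) or without siCPSF6 3 h replicate 1 (0.078) or 6 h replicate 1 (0.091). CEBPB, at 0.90 with all libraries, passed without siNC 6 h replicate 2 (1.63, adjusted p = 0.043).

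Over 0 to 3 h, 0 of 8 members passed in limma, against 2.99% of all tested genes, and 4 of 8 had an unadjusted p under 0.05. With the replicate number as a block 3 of 8 passed: NR1H4 (0.59, adjusted p = 0.0028), FOXA1 (0.50, adjusted p = 0.016) and PROX1 (-0.37, adjusted p = 0.027). NR1H4 also passed without siNC 6 h replicate 1 or 2 (adjusted p = 0.032 each), and FOXA3, at 0.88 with all libraries, without siNC 3 h replicate 1 (1.30, adjusted p = 0.028). In this comparison the block raised the count over all genes from 387 to 1025, and over 3 to 6 h from 1981 to 3189.

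The ratio of normalized count to TPM gives an apparent transcript length for each gene, since TPM divides by the length of the isoforms the authors' estimate assigned. Averaged over the 3 times, siCPSF6 against siNC passed for 2 of 8 members, against 11% of 12895 genes, 1327 of which were shorter and 93 longer. NR1H4 was shorter in siCPSF6, with a log2 difference of -0.41 (SE 0.05, adjusted p = 0.0013) and a ratio of 0.755. HNF4A had -0.16 (SE 0.03, adjusted p = 0.023). The median of all genes was -0.02. The HNF4A call was lost, at adjusted p of 0.05 to 0.075 and with values of -0.14 to -0.16, without siNC 0 h replicate 1 or 2, siNC 3 h replicate 1, siCPSF6 0 h replicate 2, siCPSF6 3 h replicate 1 or 2, or siCPSF6 6 h replicate 1. The other 6 members had values of -0.07 to -0.01 and did not pass. With each time tested alone in limma, neither NR1H4 nor HNF4A passed at 0 h (-0.32 and -0.05, adjusted p = 0.11 and 0.69). NR1H4 passed at 3 h (-0.47, adjusted p = 0.02) and at 6 h (-0.43, adjusted p = 0.025). HNF4A did not pass at 3 h (-0.15, adjusted p = 0.28) and passed at 6 h (-0.28, adjusted p = 0.036).

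Relative to CEBPA in the same library, which has a single annotated transcript in GENCODE 29, the apparent length of NR1H4 was 0.811 and 0.805 in siNC at 0 h, 0.745 and 0.740 at 3 h, and 0.580 and 0.590 at 6 h. In siCPSF6 it was 0.623 and 0.628, then 0.539 and 0.551, then 0.407 and 0.502. It was shorter in siCPSF6 at each time without overlap, and at 6 h shorter than at 0 h in both arms. HNF4A was at 1.52 and 1.52, 1.42 and 1.46, and 1.69 and 1.64 in siNC, and at 1.45 and 1.40, 1.34 and 1.30, and 1.38 and 1.49 in siCPSF6. CEBPB and FOXA3, also with 1 annotated transcript each, stayed within 0.664 to 0.669 and 0.701 to 0.706. GENCODE 29 lists 9 coding transcripts for NR1H4, of 294 to 2884 bases, and 7 for HNF4A, of 1192 to 6445. Gene-level values do not show which isoforms or ends changed.

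**Figure D4:**
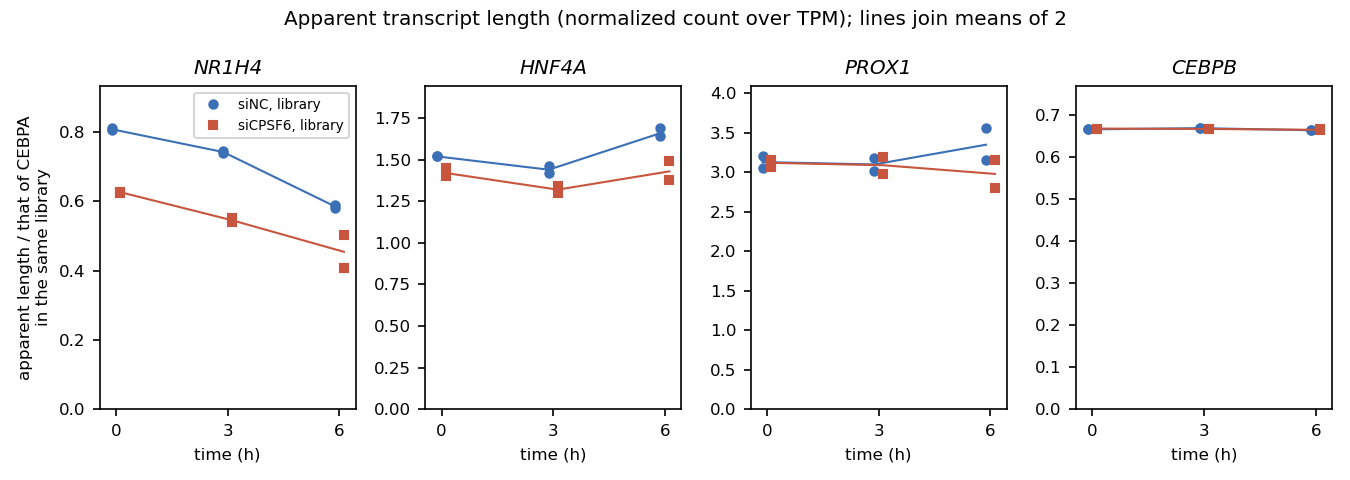
Apparent transcript length (normalized count over TPM) divided by that of CEBPA in the same library, for NR1H4, HNF4A, PROX1 and CEBPB, by time in actinomycin D; circles are siNC libraries, squares siCPSF6, lines join means of 2, and each panel starts at 0. NR1H4 is lower in siCPSF6 at each time, while CEBPB lies flat in both arms.

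Of 20 other liver-enriched transcription factors 19 were tested. At 0 h 3 were higher and 7 lower in siCPSF6, 10 of 19 in all against 42.9% of all tested genes, with a median of -0.21 beside 0.00 for all genes. The carbohydrate-responsive factor MLXIPL was lower by 1.42 (adjusted p = 3e-08), the oxysterol receptor NR1H3 (LXR alpha) by 0.83 (adjusted p = 2.8e-05) and the estrogen-related receptor ESRRA by 0.85 (adjusted p = 6.3e-05). Over 6 h of the block 10 were lower and 6 higher in siNC, and 9 lower and 6 higher in siCPSF6. With spike-in scaling 15 were lower and 1 higher in siNC, and 16 and 1 in siCPSF6. Of all tested genes, 30.7% (siNC) and 27.6% (siCPSF6) were lower as deposited, and 57.7% and 52.4% with spike-in scaling. GATA4, a partner of the FOXA factors in liver specification, fell by 4.11 in siNC and by 3.47 in siCPSF6, and HHEX, a homeobox factor of the early liver bud, by 2.47 and by 1.85. TBX3, a T-box factor of hepatoblasts, fell by 2.08 in siNC and by 2.04 in siCPSF6. MLXIPL was the single gene of this list that was higher on the spike-in scale, by 0.78 in siNC and 0.76 in siCPSF6.

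The bile acid genes are known targets of NR1H4, NR5A2 and HNF4A. Of 14 listed, 13 were in the table and 10 were tested. At 0 h SLC27A5, a bile acid ligase, was higher in siCPSF6 (0.40, adjusted p = 0.019). SLC51B, a subunit of a bile acid exporter, was lower (-0.69, adjusted p = 0.036), and CYP8B1, the sterol 12-hydroxylase, was at 0.94 (adjusted p = 0.058). The SLC27A5 call was lost with spike-in scaling (0.26, adjusted p = 0.3). At 6 h 8 of 10 were higher in siCPSF6 and the other 2 did not pass, where 3495 of all 12939 tested genes were higher. With spike-in scaling 5 of 10 were higher, beside 2507 of 12939. The median difference was 0.79 as deposited and 0.76 with spike-ins, beside -0.02 and -0.05 for all genes. Some of the calls at 6 h rest on few counts. Means at 6 h in siNC and siCPSF6 were 2.5 and 16 for CYP8B1, 12.5 and 58 for BAAT, and 32.5 and 70.5 for SLC51A. ABCB4 had 52 and 120, and these genes with KLB were the 5 higher with spike-ins. CYP8B1 had 21.5 and 10.5 in siNC at 0 and 3 h, and 41.5 and 32.5 in siCPSF6. It thus reached the minimum mean of 20 through siCPSF6, so that its call as higher there is not independent of that filter. Of the 10 genes, 4 were higher and 4 lower over 6 h of the block in siNC, and 5 higher and 3 lower in siCPSF6. With spike-in scaling 1 was higher and 8 lower in siNC, and 1 higher and 4 lower in siCPSF6. The share of all tested genes that were lower was 30.7% (siNC) and 27.6% (siCPSF6) as deposited, and 57.7% and 52.4% with spike-in scaling. In siNC, NR0B2 (SHP), the repressor that NR1H4 induces, fell from a mean of 743 ± 70.7 to 44.5 ± 10.6 normalized counts (-4.05, adjusted p = 2.1e-11). In siCPSF6 it fell from 777 ± 53.7 to 47.5 ± 0.707 (-4.00, adjusted p = 7.9e-11). The FGF19 receptor FGFR4 was higher at 6 h in both arms (1.47 and 1.22 as deposited, 0.51 and 0.36 with spike-ins), as was CYP27A1, an enzyme of the acidic pathway, as deposited (0.58 in siNC and 0.87 in siCPSF6). With spike-ins CYP27A1 was lower in siNC (-0.38, adjusted p = 0.018) and at 0.01 in siCPSF6 (adjusted p = 0.95).

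Of 20 liver product genes, which these factors are known to activate, 19 were in the table and 17 tested. At 0 h 7 were higher and 4 lower in siCPSF6, again against 42.9% of all genes. Haptoglobin (HP) was lower by 1.25 (adjusted p = 5.6e-08), while transthyretin (TTR) and the fibrinogen chain FGB were higher by 1.07 and 1.09. Over 6 h 17 of 17 were higher in siNC and 16 of 17 in siCPSF6 as deposited, a scale on which 6292 and 6439 of all 12939 tested genes were also higher. With spike-in scaling 7 were higher and 2 lower in siNC and 11 were higher in siCPSF6, beside 1325 and 754 genes of 12939 that were higher. The median on the spike-in scale was 0.27 in siNC and 0.36 in siCPSF6, beside -3.87 and -3.39 for the 8 factors. TTR and the fibrinogen chain FGG had the largest values in siNC, 2.29 and 2.25 as deposited. In siCPSF6 they had 1.45 and 1.1. The apolipoproteins APOA1 and APOB and angiotensinogen (AGT) had 0.88, 1.27 and 1.13 in siNC and 1.28, 1.31 and 1.26 in siCPSF6.

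**Figure D5:**
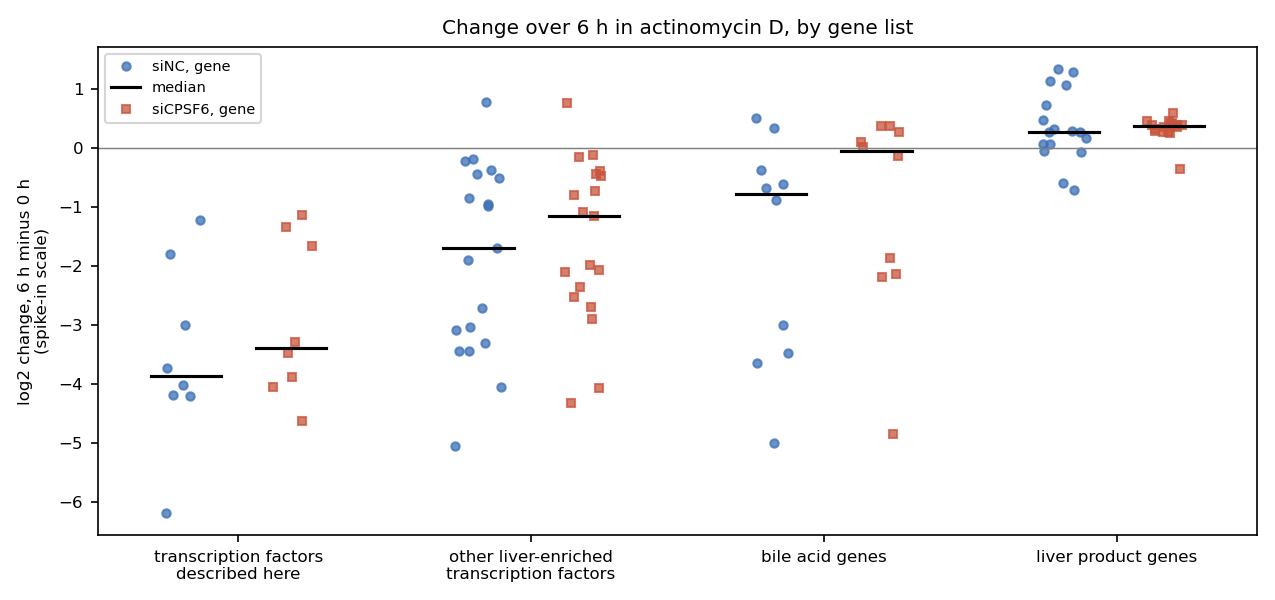
Log2 change from 0 to 6 h in actinomycin D on the spike-in scale (vertical axis) for the 8 tested factors and 3 lists; circles are genes in siNC, squares genes in siCPSF6, bars are medians. The 8 factors have medians of -3.87 and -3.39, and the liver product genes of 0.27 and 0.36.

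Among the members, FOXA2 and FOXA3 had the most similar course over the 12 libraries, with a root mean square difference of 0.23 in log2 after each gene's own mean was subtracted. FOXA1 differed from FOXA2 by 0.37 and from FOXA3 by 0.39, and CEBPA and HNF4A were the least similar pair, at 1.77. Over 10307 genes with a mean of at least 100, the closest in course were PDRG1 and E2F2 for HNF4A (0.11 each), PID1 (0.14) and INIP (0.16) for NR1H4, and SOCS5 (0.11) and KANSL1 (0.13) for PROX1. For CEBPA they were ID2 (0.41) and RNF139 (0.46), and for CEBPB NRBF2 (0.50) and ETS2 (0.53). For FOXA1 the closest was ID1 (0.21). For FOXA2 they were AMBRA1 (0.17) and PLK2 (0.19), for FOXA3 FOXA2 and KBTBD7 (0.26), and for NR5A2 TRAF6 (0.23) and NRF1 (0.24). These are descriptions over 12 libraries that share 6 groups.

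The positions of the genes (GENCODE 29, hg38) are CEBPA at chr19:33299934-33302564, FOXA3 at chr19:45863989-45873797, CEBPB at chr20:50190734-50192689, HNF4A at chr20:44355700-44434596 and FOXA2 at chr20:22581005-22585455. FOXA1 is at chr14:37589984-37596059, NR1H4 at chr12:100473708-100564413, NR5A2 at chr1:200027602-200177424 and PROX1 at chr1:213983181-214041502. FOXA3 overlaps no other annotated gene. CEBPA, CEBPB, HNF4A, FOXA1, NR1H4, NR5A2 and PROX1 overlap genes on the opposite strand, and HNF4A, FOXA2 and NR5A2 genes on the same strand. Whether counting used the strand is not given in the sources used here, so that reads of these partners may be included.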

How the data were processed

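RNA-seq libraries of HepG2 cells (12; 6 groups of 2 biological replicates, per the labels) were described for 9 genes. Per the submitters' processing notes STAR, RSEM and hg38 were used; the sources used here give no version, annotation or strand setting. The normalized counts that the authors deposited are a score: gene-level counts scaled to an upper quartile of 660.5 to 661 and rounded to whole numbers, and so not raw counts. The TPM that the authors deposited cover the same 22235 entries (87 of them spike-ins). The step between attainable values put the authors' scaling factors at 0.7036 to 1.3984 and the reads per library at 21800000 to 30300000; this depth limits genes of few counts, such as NR5A2.

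limma 3.58.1 under R 4.3.3 (moderated with a trend and robustly) was run on log2 of the normalized count plus 1, which understates changes of low genes, in 1 fit of the 6 groups that leaves 6 residual degrees of freedom. Tests covered 12939 genes whose mean reached 20, in 12 comparisons, with Benjamini-Hochberg adjustment within each and a threshold of 0.05. Spike-in scaling divided each library by its spike-in sum. The fit was tested on simulated data. The TPM were tested as log2 of TPM plus 1 (12188 genes with a mean of at least 1 TPM), which understates changes of genes of few TPM. Apparent length is log2 of normalized count over TPM (12895 genes). Alternatives were other pseudocounts, filters, scalings, the TPM, other fits and each library left out; spike-in scaling with the replicate block was chosen after seeing the data. Named genes were the 9 members, CPSF6, up to 3 genes per list with the smallest p in the 0 h and the 6 h against 0 h comparisons, and the 2 genes most like each member, of which 1 is not reported here. Members and lists were chosen with earlier results of these data known. Same-numbered libraries deviated together (r of 0.11 to 0.24 in 15 of 15 pairs of groups), so the replicate numbers pair the samples by their values; no label gives a common day or batch. Sequences are from GENCODE 29.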

Additional observations from a re-analysis of the deposited data

Results flagged for a closer look

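In 5 results the change over time differed between siNC and siCPSF6 by the test of that difference (limma, log2 scale, adjusted over all tested genes). NR1H4 lost less in siCPSF6 over 0 to 6 h, by 1.77 (SE 0.16, adjusted p = 3.9e-06), and over 3 to 6 h, by 1.18 (adjusted p = 0.00017), and both also passed with spike-in scaling. Each siCPSF6 library of NR1H4 at 6 h (670 and 770 normalized counts) was above each siNC library (343 and 411), although the order at 0 h was the opposite. CEBPA lost less in siCPSF6 over 0 to 6 h, by 1.46 (adjusted p = 0.038), and over 3 to 6 h, by 1.55 (adjusted p = 0.042). PROX1 differed over 3 to 6 h by 0.41 (adjusted p = 0.021). Spike-in scaling ended these 3 calls in the fit without the replicate block. With the block, CEBPA kept its calls on either scale, and PROX1 lost its call on the spike-in scale.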

How the results depend on the processing

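Of 2328 values recomputed for single genes over 104 results, 2176 kept their side of the threshold, 92 lost a call, 54 gained one and 6 reversed. A reversal was counted only where the main or the recomputed value passed. Values that passed in neither could change sign within the 2176. The reversals counted in this way were all in 6 h against 3 h. They were HNF4A in siNC in the TPM table (-0.07) and HNF4A in siCPSF6 with spike-in scaling (-0.10, and -0.10 with the block). HNF4A in siCPSF6 in the TPM table (-0.15) and PROX1 in siCPSF6 with spike-in scaling (-0.05, and -0.05 with the block) were the others. NR1H4 in siCPSF6 against siNC at 3 h also changed sign, from -0.25 to 0.21 in the TPM table, but passed in neither. With the replicate number as a block, the calls that changed are given beside the results, and no other call of a member changed. Counts of members past the threshold moved as follows. At 0 h siCPSF6 against siNC gave 3, 6 when only the groups compared were fitted, and 2 to 5 with 1 library left out. At 3 h it gave 5, 3 with spike-in scaling, 3 in the TPM table and 2 to 5 with 1 library left out. For 6 h against 3 h in siCPSF6 the count was 3, and 1 with median-ratio scaling, in the TPM table or with only the groups compared, and 1 to 3 with 1 library left out. For the difference between the arms over 0 to 3 h it was 0, 3 with the replicate block, 3 with spike-in scaling and the block, 2 when only the groups compared were fitted, and 0 to 1 with 1 library left out. Over 0 to 6 h it was 2, 1 with no filter, 1 with spike-in scaling and 1 to 2 with 1 library left out. Over 3 to 6 h it was 3, 1 with spike-in scaling, 1 in the TPM table and 1 to 4 with 1 library left out. For apparent length it was 2, and 1 to 2 with 1 library left out. At 6 h the count for siCPSF6 against siNC was 4, and 3 to 6 with 1 library left out. Where leaving out a library left 1 in a group, that library was taken to vary like the others. Bile acid genes at 0 h numbered 2, 4 with a pseudocount of 10 or when only the groups compared were fitted, and 1 after spike-in scaling, with a range of 0 to 3 with 1 library left out. Over all genes, spike-in scaling lowered the calls from 8612 to 5354 for 3 h against 0 h and from 4408 to 2475 for 6 h against 3 h in siCPSF6, where the TPM table gave 2294. For the difference between the arms the calls fell from 387 to 177, from 3153 to 1130 and from 1981 to 604 with spike-in scaling, over 0 to 3, 0 to 6 and 3 to 6 h, and to 36, 1553 and 919 in the TPM table. Over 0 to 3 h they numbered 138 with no trend or robust settings, 668 with spike-in scaling and the block, 672 when only the groups compared were fitted, and 106 to 215 without any of the 8 libraries compared. Over 0 to 6 h they numbered 2017 without siCPSF6 0 h replicate 1. The causes were not tested. Depth limits NR5A2 and, at 6 h, CEBPB, which had 11 to 50 normalized counts.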
